A study of Mus musculus with 183 samples.

Results

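The 10 mRNAs described here encode the machinery that removes the cap of an mRNA and degrades the body from its 5′ end: Xrn1, Dcp2, Dcp1a, Dcp1b, Edc3, Edc4, Ddx6, Patl1, Lsm1 and Lsm14a. They were chosen by name from a list of 5′-3′ decay genes and not by any measured value, though earlier results of these data were known. They are 10 of the 53380 genes in the counts. All 10 passed the filter on low counts in every comparison, and 9 of them are among the 7240 mRNAs with crosslinking values, the exception being Dcp1b. The study asked how mouse embryonic stem cells (mESCs) divide mRNA decay between XRN1 and the 3′-5′ helicase SKIV2L, and what AVEN does beside SKIV2L. The counts come from a half-life experiment in which actinomycin D blocked transcription.

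Clone 5F carries Rosa26Cre-ERT2/- and Skiv2lfl/fl. By its labels, clone 7E carries Rosa26Cre-ERT2/BirA-V6, a tagged Skiv2l3xFLAG-Avi/3xFLAG-Avi and Aven-/-. The labels of the clone 7E libraries used here do not list Skiv2lfl/fl, whereas the labels of its other RNA-seq libraries do. The study lists BirA-V5 and Skiv2lfl/fl for its conditional knockout lines with Aven-/-. Each line is 1 clone in serum and LIF, and each was taken at day 0 and day 4 of 0.1 µM 4-hydroxytamoxifen (4OHT), the ligand that activates CreERT2. Cells received actinomycin D for 120, 240 or 360 min, or DMSO alone for the whole period as the mock group that stands for 0 min. Each group had 3 libraries, except that 2 were analysed at 120 min of clone 5F at day 0. The labels give actinomycin D as 5 µg/µl, which equals the 5 mg/ml stock named in the study's methods. By those methods the cells received 5 µM. The study calls its replicates technical, so p-values measure the spread between these libraries and not between independent cultures or clones. The crosslinking values come from other lines than clones 5F and 7E, with a tag on XRN1, SKIV2L, AVEN or the nuclear helicase MTR4. The study lists neither Aven-/- nor Skiv2lfl/fl for those tagged lines, and their labels give no 4OHT.

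An mRNA that has lost its poly(A) tail is bound at its 3′ end by the LSM1-7 ring with PATL1, which recruits the decapping enzyme. DCP2 is the catalytic subunit, DCP1A and DCP1B are its activating partners, and EDC3 and EDC4 hold the enzyme together. The helicase DDX6 and the scaffold LSM14A join decapping to repression of translation in P-bodies. XRN1 is the cytoplasmic exonuclease that then degrades the uncapped body, while SKIV2L and the exosome work from the other end.

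Designed sequences mark where 2 of the genes behind these measurements were altered. All are shown 5′ to 3′ with the guide in lower case and the neighbouring PAM of the genome in capitals, and all matched the minus strand of GRCm38. The first lies at chr9:96052801-96052820, where it overlaps the stop codon in exon 42, the last coding exon of Xrn1, and was used to tag XRN1 for crosslinking. The other pair lies at chr17:34846312-34846331 and chr17:34844195-34844214, in introns 10 and 17 of Skiv2l, and placed the loxP sites.
Xrn1 C-terminus: aggtaccaaatttattccgaAGG
Skiv2l Intron 10: gacctgggctaacttaggaaAGG
Skiv2l Intron 17: tctccccttaaccttaaatgGGG

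Total counts ranged from 24540658 to 34208466 per library. All 8 embryonic stem cell markers exceeded 1 CPM, a count scaled to the total of its library, in each mock group, with a summed level of 2760 to 3430 CPM. The 5 fibroblast markers summed to 2.27 to 9.27 CPM, with Lum at 0 in clone 7E at day 0. Skiv2l stood at 147 to 148 CPM in clone 5F at day 0 and at 132 to 153 CPM in the libraries labelled day 4 (log2 fold change -0.01 ± 0.05, adjusted p = 0.914), so counts over the whole gene did not check the label in this clone. In clone 7E it fell from 31.2 to 36.1 CPM at day 0 to 12.4 to 13.8 CPM at day 4 (-1.32 ± 0.07, adjusted p = 7.86e-13). Aven was at 32.1 to 36.1 CPM in clone 5F and at 1.297 to 2.993 CPM in clone 7E. The 6 libraries whose sample number is a multiple of 8, none of them a mock library, held 2139 to 3562 CPM of mt-Rnr2, a mitochondrial ribosomal RNA, against 5263 to 30710 CPM in the other 41. Within its own group each of these 6 libraries also had the lowest Patl1 and Lsm14a and the highest Lsm1, so results on decay are given with and without them wherever a call changed. Of the other 41, numbers 4, 12, 20, 28, 36 and 44 were the lowest in mt-Rnr2, at 5263 to 6640 CPM, with the rest at 8566 CPM or more. They are not mock libraries either, so the low values of both kinds lie only in actinomycin D groups. Numbers 4 to 44 of this list stayed in that check and were not left out as a set.

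The mRNAs of this pathway did not decay alike. In clone 5F at day 0 the half-life was 119 min for Dcp1a, 149 min for Ddx6 and 193 min for Xrn1, and 444 min for Dcp2. Half-lives were taken from a straight line through ln(normalized count + 1) against minutes, and the bounds below come from that slope ± 1 standard error (SE). The median over the 10 mRNAs was 229.9 min and that over the 18623 genes fitted was 283 min, with 6 of the 10 below the latter. In clone 7E at day 0 the medians were 244.1 and 279.6 min, again with 6 of 10 below.

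**Figure D1:**
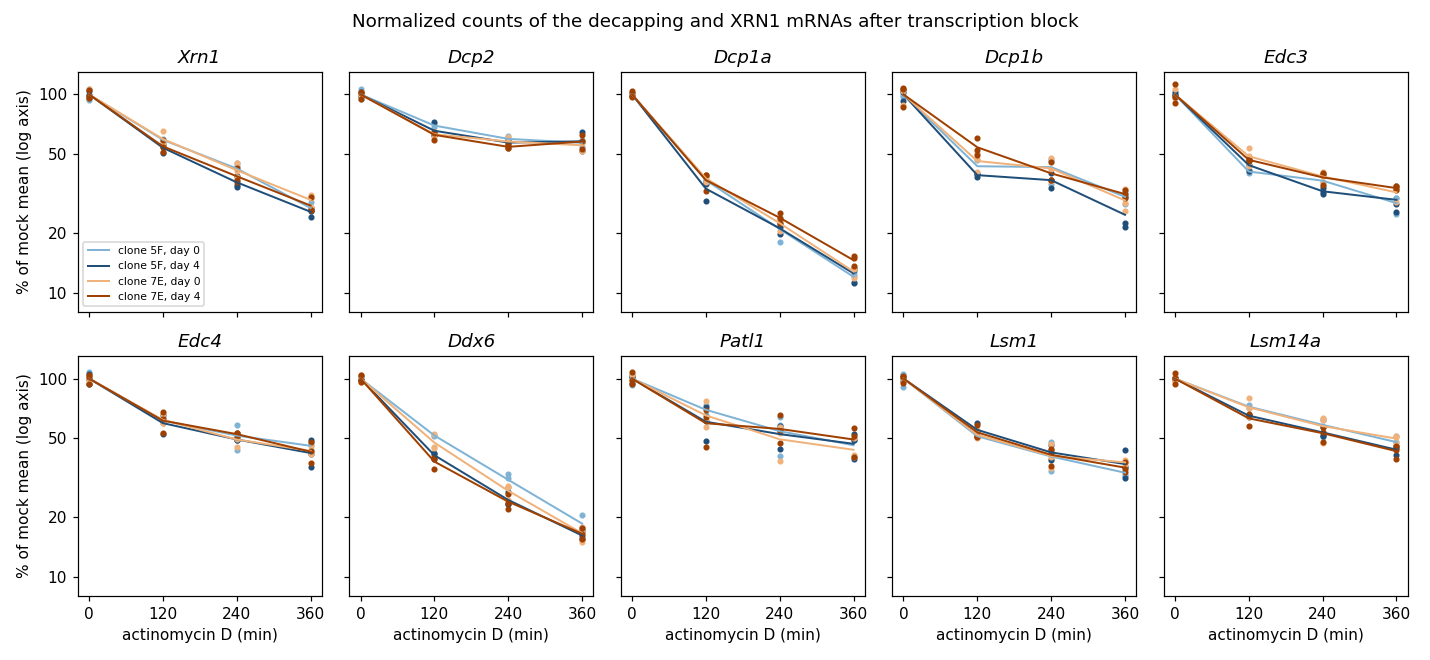
Normalized counts of the 10 mRNAs as a percent of the mock mean of the same clone and day (log axis), against minutes of actinomycin D. Points are libraries, lines join group means, and colours mark the clone and the day of 4OHT. Dcp1a and Ddx6 fell furthest, to between 12.0% and 18.5% of mock by 360 min, and Dcp2 kept between 55.4% and 58.0%.

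Dcp1a, on chromosome 14 (30479535 to 30527063, GRCm38), was the shortest lived of the 10. In clone 5F at day 0 its normalized counts were 4835, 4982 and 4804 in the mock libraries and 590, 615 and 552 at 360 min. In clone 7E the same values were 5029, 4986 and 4986 and then 655, 667 and 593. The mock and 360 min libraries were far apart in both clones, and 12.0% ± 0.643 (SD, n = 3) and 12.8% ± 0.797 remained. The half-life was 119 min (bounds 113 and 126) in clone 5F and 124 min (118 and 131) in clone 7E, and 148 and 154 min without the mock libraries. Its slope lay at the percentile 9.32 of all genes in clone 5F, where low percentiles are fast. Dcp1b, the paralogue on chromosome 6 (119175253 to 119221616), was counted at only 79 to 209 reads per library, and its half-life of 228 min (200 and 266) in clone 5F was correspondingly less precise and became 447 min without the mock libraries. Its level was 43.4% ± 4.67 (n = 2) of mock at 120 min and 43.0% ± 6.81 at 240 min, and then 30.4% ± 2.10 at 360 min.

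Dcp2, the catalytic subunit on chromosome 18, had the longest half-life of the 10 in all 4 clone and day groups. Its normalized counts in clone 5F at day 0 were 7159, 6392 and 6594 in mock and 3632, 3900 and 3948 at 360 min, which left 57.0% ± 2.53 (SD, n = 3). In clone 7E 55.4% ± 3.30 remained. Most of its fall came early, with 64.3% of the log2 change in clone 5F and 78.4% in clone 7E within the first 120 min. The half-lives were 444 min (393 and 510) and 447 min (380 and 544), but without the mock libraries they became 863 and 1291 min, so the value depends on the first interval.

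Ddx6, on chromosome 9 (44604892 to 44640731), was the second shortest lived. Its normalized counts in clone 5F at day 0 were 8287, 8033 and 8603 in mock, 4297 and 4276 at 120 min, and 1464, 1709 and 1447 at 360 min. It fell by a similar step in each interval, -0.955, -0.742 and -0.735 on the log2 scale. The half-life was 149 min (144 and 154) in clone 5F and 140 min (134 and 146) in clone 7E, and 162 and 158 min without the mock libraries. Lsm14a, its P-body partner on chromosome 7 (34344646 to 34393315), was among the slower members at 339 min (315 and 368) and 359 min (321 and 407). These became 404 and 461 min without the mock libraries.

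Xrn1, on chromosome 9 (95954760 to 96057803), had a shorter half-life than the median gene. Its normalized counts in clone 5F at day 0 were 2859, 2529 and 2679 in mock, 1571 and 1603 at 120 min, 1174, 1026 and 1209 at 240 min, and 691, 766 and 698 at 360 min. No library of one time point overlapped those of the next. The half-life was 193 min (185 and 201) in clone 5F and 206 min (196 and 218) in clone 7E, and 207 and 236 min without the mock libraries.

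Edc3 and Edc4, which scaffold the decapping enzyme, differed in rate. Edc3, on chromosome 9 (57708540 to 57752499), dropped to 40.8% ± 1.07 (n = 2) of mock by 120 min in clone 5F at day 0, and then slowly to 28.3% ± 3.01 (n = 3) at 360 min. Its half-life of 207 min (183 and 239) was 435 min without the mock libraries. Edc4, on chromosome 8 (105880881 to 105894908), kept 45.8% ± 2.06 at 360 min, with a half-life of 324 min (286 and 373), or 574 min without the mock libraries.

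Patl1 and Lsm1, the factors that recognise deadenylated ends, lay between these extremes. Patl1, on chromosome 19 (11912399 to 11945091), kept 46.1% ± 4.98 at 360 min in clone 5F at day 0 and had a half-life of 319 min (279 and 372), or 333 min without the libraries numbered a multiple of 8. Without the mock libraries this half-life was 411 min. Lsm1, on chromosome 8 (25785288 to 25803975), kept 33.5% ± 1.93 and had a half-life of 232 min (207 and 264), or 397 min without the mock libraries. In order of half-life in clone 5F at day 0, the bounds of Dcp1a, Ddx6 and Xrn1 were separate from each other, those of Xrn1, Edc3, Dcp1b and Lsm1 overlapped from one to the next, and so did those of Patl1, Edc4 and Lsm14a, while Dcp2 stood apart.

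Each mRNA was next compared with the typical transcript of the same cells, which needs no spike-ins. The slope against time was fitted with size factors over all time points, so that 0 stands for the typical transcript and negative values, in log2 per h, for faster loss. In clone 5F at day 0, Dcp1a (-0.29 ± 0.01 SE), Ddx6 (-0.19 ± 0.02), Xrn1 (-0.09 ± 0.02) and Edc3 (-0.07 ± 0.02) decayed faster, and Dcp2 (0.08 ± 0.01) and Lsm14a (0.04 ± 0.02) slower. These were 4 of 10 called faster and 2 of 10 called slower, and among all 17032 genes 63.7% were called, 34% as faster and 29.7% as slower (edgeR quasi-likelihood test, Benjamini-Hochberg adjusted p under 0.05), so the numbers of calls lay close to the background. The median over the 10 was -0.05 and that over all genes was -0.0007. Dcp1b (-0.05 ± 0.03, adjusted p = 0.136), Edc4 (0.03 ± 0.02, 0.0789), Patl1 (0.03 ± 0.02, 0.266) and Lsm1 (-0.04 ± 0.02, 0.0610) did not pass.

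In clone 7E at day 0 the calls fell on Dcp1a (-0.26 ± 0.01), Ddx6 (-0.21 ± 0.02), Xrn1 (-0.07 ± 0.02) and Edc3 (-0.04 ± 0.02) as faster, and on Dcp2 (0.09 ± 0.01) and Lsm14a (0.05 ± 0.02) as slower. Here 61.6% of all 16418 genes were called, 32.4% as faster and 29.2% as slower. The adjusted p was 1.92e-10 for Dcp1a, 2.23e-08 for Ddx6, 0.00148 for Xrn1 and 8.36e-06 for Dcp2, against 0.0324 for Edc3 and 0.0202 for Lsm14a. The calls of Edc3 and Lsm14a changed with the processing. A replicate block ended that of Edc3 in clone 7E (adjusted p = 0.0546) and that of Lsm14a in clone 5F (0.0602). Keeping all genes with at least 1 count ended the same pair (0.0653 and 0.0681), and TMM scaling ended that of Lsm14a in clone 5F (0.0701) and added Lsm1 there (0.0423). Without replicate 1, 2 or 3 the adjusted p of Edc3 in clone 7E was 0.0674, 0.0733 and 0.238, and that of Lsm14a in clone 5F was 0.163, 0.172 and 0.0772. Lsm14a in clone 7E was lost without replicate 1 (0.179) or 2 (0.0556). Without the mock libraries Edc3 was at -0.0017 in clone 5F and -0.0068 in clone 7E, and Lsm14a at -0.0129 and 0.0131, and none of these passed. Without the libraries numbered a multiple of 8, clone 5F gave 8 calls, with Edc4 (0.04, adjusted p = 0.0191) and Lsm1 (-0.05, 0.0249) added, and both were also called there without replicate 2 (0.0285 and 0.0431).

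**Figure D2:**
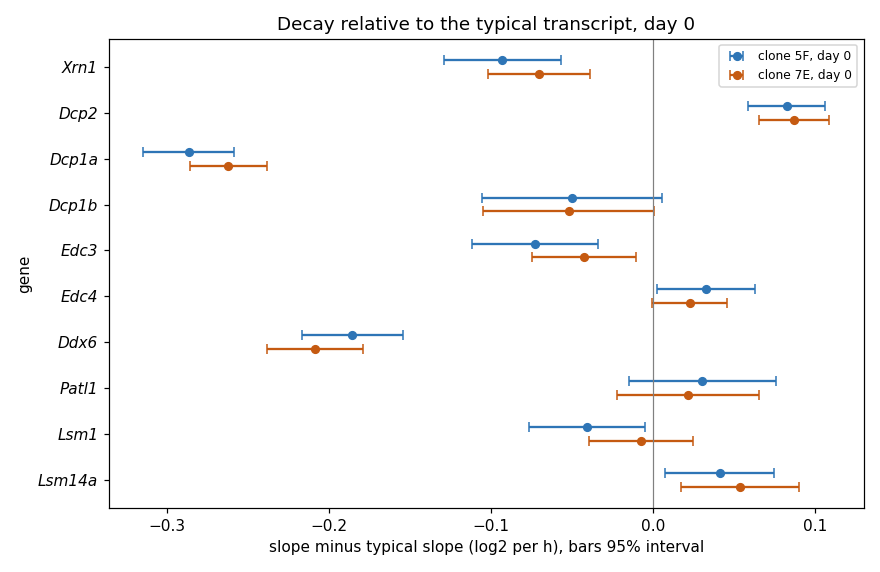
Slope of each mRNA relative to the typical transcript at day 0, in log2 per h, with bars of the 95% interval, for clone 5F (11 libraries) and clone 7E (12 libraries). The interval is a normal approximation, narrower than the test allows. Dcp1a and Ddx6 lie furthest below 0 in both clones, and Dcp2 lies furthest above it.

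Among 18 further genes of the pathway, all tested, clone 5F at day 0 gave 3 faster and 8 slower calls, and clone 7E 3 and 7. The mRNAs of Pnrc2 (-0.45 ± 0.02) and Pnrc1 (-0.32 ± 0.03), small proteins that activate decapping, had the largest differences in clone 5F, followed by Patl2 (0.13 ± 0.03), the paralogue of Patl1. In clone 7E the order was Pnrc1 (-0.32 ± 0.02), Pnrc2 (-0.28 ± 0.01) and Dcps (0.13 ± 0.02), the scavenger of free caps. For 11 tested exosome genes the calls were 2 faster and 7 slower in clone 5F and 2 and 6 in clone 7E, with medians of 0.05 and 0.06. For 14 deadenylase genes they were 7 faster and 3 slower in clone 5F and 6 and 3 in clone 7E, with medians of -0.03 and -0.01.

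Whether 4OHT altered the decay of these mRNAs was asked with an interaction term between time and day in the normalized counts. Size factors were set across clones and days within a time point. The spike-in ratio was shared by them too, so it largely cancels in this term. Slope differences are therefore relative to the typical gene, and a change in decay common to most genes could not appear. None of the 10 passed in either clone, and none had an unadjusted p under 0.05. In clone 5F 0.196% of 17901 genes passed, 0.134% with slower and 0.0614% with faster loss at day 4. In clone 7E 0.884% of 17417 passed, 0.402% with slower and 0.482% with faster loss. At such rates a list of 10 would seldom hold a call. In clone 5F the slope differences (day 4 minus day 0) ran from -0.04 for Dcp1b to 0.03 for Lsm1, with a median of -0.0044. In clone 7E they ran from -0.03 for Lsm14a to 0.04 for Patl1, with a median of 0.0033. Each library's own spike-ins do not fix the typical gene. With them the median over all genes was -0.010 in clone 5F and 0.019 in clone 7E, and none of the 10 passed.

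The intervals show what the data could still hide. For Xrn1 the 95% interval ran from -0.06 to 0.03 log2 per h in clone 5F and from -0.06 to 0.03 in clone 7E. Its half-lives at day 0 and day 4 were 193 and 185 min in clone 5F and 206 and 197 min in clone 7E. Without the mock libraries they were 207 and 224 min in clone 5F and 236 and 242 min in clone 7E. With own spike-ins the value of clone 7E at day 4 was 213 min. For Dcp2 the 95% interval ran from -0.05 to 0.06 and from -0.06 to 0.07. For Dcp1b, the least counted, it ran from -0.15 to 0.06 and from -0.08 to 0.09. Differences inside these bounds were not excluded here. The bounds are a normal approximation, narrower than the test allows, and they do not cover a change common to most genes.

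**Figure D3:**
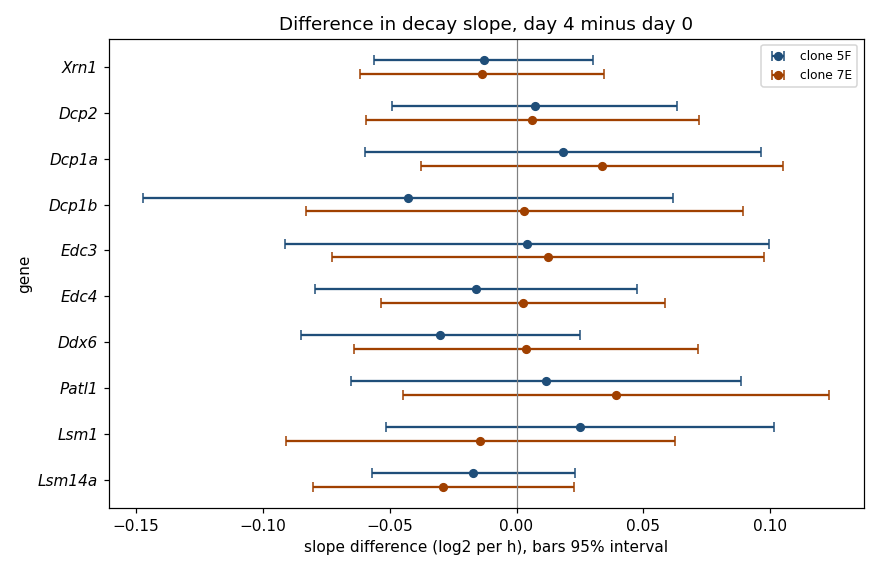
Difference in decay slope between day 4 and day 0 of 4OHT for each mRNA, in log2 per h, for clone 5F (23 libraries) and clone 7E (24 libraries). Differences are relative to the typical gene. Bars are the 95% interval by a normal approximation, and every bar crosses 0.

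The largest shift in an early value between days was that of Ddx6. It stood at 51.6% ± 0.180 of mock after 120 min in clone 5F at day 0 (n = 2) and at 41.0% ± 1.65 at day 4 (n = 3), and in clone 7E at 47.5% ± 4.21 and 38.1% ± 2.89 (n = 3). By 360 min the values were 18.5% ± 1.77 and 16.1% ± 0.771 in clone 5F, and 16.6% ± 1.50 and 16.5% ± 0.977 in clone 7E. The slope difference was -0.03 ± 0.03 in clone 5F and 0.0036 ± 0.03 in clone 7E, and neither passed. The comparison at 120 min was picked after the values were seen and was not tested.

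A difference in decay between the clones at day 0, again relative to the typical gene, was not detected for the 10 either. The slope differences (7E minus 5F) ran from -0.03 for Ddx6 to 0.03 for Lsm1, and none of the 10 passed, where 0.0376% of 18623 genes did, 0.0322% with slower and 0.00537% with faster loss in clone 7E. Of the 18 further pathway genes, Pnrc2 passed (0.16 ± 0.03, adjusted p = 0.0271), with slower loss in clone 7E. On leaving out replicate 1, 2 or 3 no gene passed, so this call was lost each time. The change from day 0 to day 4 did not differ between clones for any member, with values from -0.04 for Lsm1 to 0.05 for Dcp1b. In that comparison 0% of the 18623 genes passed with edgeR, 476 had an unadjusted p under 0.05, and DESeq2 and limma-voom called 4 and 0.

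Mock levels, that is the amounts without transcription block, did move. In clone 5F, Xrn1, Dcp1b and Edc4 rose and Lsm1 fell between day 0 and the libraries labelled day 4. These were 3 of 10 higher and 1 of 10 lower, against 12.8% and 11.6% of the 16349 genes tested, or 24.5% in either direction. The log2 fold change is relative to the typical gene, and the median over the 10 was 0.07 beside -0.0050 over all genes.

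Xrn1 in clone 5F had normalized counts of 2859, 2529 and 2679 at day 0 and 3023, 3255 and 3124 at day 4. All day 4 libraries lay above all day 0 libraries, and the log2 fold change was 0.22 ± 0.05 (adjusted p = 0.00334). Dcp1b, the less abundant DCP1 paralogue, rose from 146, 142 and 151 to 195, 201 and 176 without overlap (0.38 ± 0.11, adjusted p = 0.0114). Edc4 went from 3564, 4091 and 3724 to 4250, 4003 and 4494, where 1 day 4 library lay inside the day 0 range (0.16 ± 0.05, adjusted p = 0.0316). Lsm1 went from 1264, 1087 and 1250 to 1069, 1081 and 1024, all below the day 0 libraries (-0.18 ± 0.06, adjusted p = 0.0421).

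Ddx6 just missed the threshold in clone 5F (0.12 ± 0.04, adjusted p = 0.0502), and passed with TMM scaling (0.0461), DESeq2 (0.0385) and limma-voom (0.0424), where Lsm1 missed it with the last pair (0.0553 and 0.0511). Edc4 and Lsm1 lost their calls on leaving out day 0 replicate 1 (adjusted p = 0.179 and 0.187), day 0 replicate 3 (0.122 and 0.180), day 4 replicate 1 (0.0846 and 0.0866) or day 4 replicate 3 (0.133 and 0.114), and with a replicate block (0.0782 and 0.0881). With each library's own spike-ins, which moved the median of all genes in clone 5F by -0.07, Xrn1 (0.16, adjusted p = 0.118), Dcp1b (0.31, 0.0686) and Edc4 (0.09, 0.386) did not pass.

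In clone 7E, Dcp1a was lower and Edc4 higher at day 4 than at day 0, against 19.4% and 20.7% of 16333 genes that were called lower and higher, or 40.1% in all. Dcp1a had normalized counts of 5029, 4986 and 4986 at day 0 and 4351, 4642 and 4387 at day 4, with no overlap (-0.17 ± 0.05, adjusted p = 0.00638). Edc4 had 5287, 5604 and 5451 and then 6055, 5620 and 6242, with all day 4 libraries above the day 0 range (0.13 ± 0.05, adjusted p = 0.0330). Xrn1 in this clone was at 3279, 3000 and 2959 and then 3195, 3438 and 3110, which overlapped (0.08 ± 0.05, adjusted p = 0.277). The other members ran from -0.12 for Lsm1 to 0.10 for Lsm14a, and the median over the 10 was -0.04.

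The call of Edc4 in clone 7E was lost without day 0 replicate 1 (adjusted p = 0.156) or 3 (0.0869), without day 4 replicate 1 (0.118) or 3 (0.0981), and with a replicate block (0.0843). Edc3 passed without day 4 replicate 3 (-0.18, adjusted p = 0.0242). All these changes are relative to the typical gene, because the size factors within a time point are set by it. The ratio of mRNA to ERCC counts in mock was 151 to 156 in clone 7E at day 4 and 312 to 363 in the other 3 groups. Scaled to each library's own spike-ins, the median of all genes in clone 7E moved by -1.105 and all 10 mRNAs were lower at day 4, from -0.97 for Edc4 to -1.26 for Dcp1a. In such bulk samples, fewer cells and less RNA per cell cannot be told apart.

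**Figure D4:**
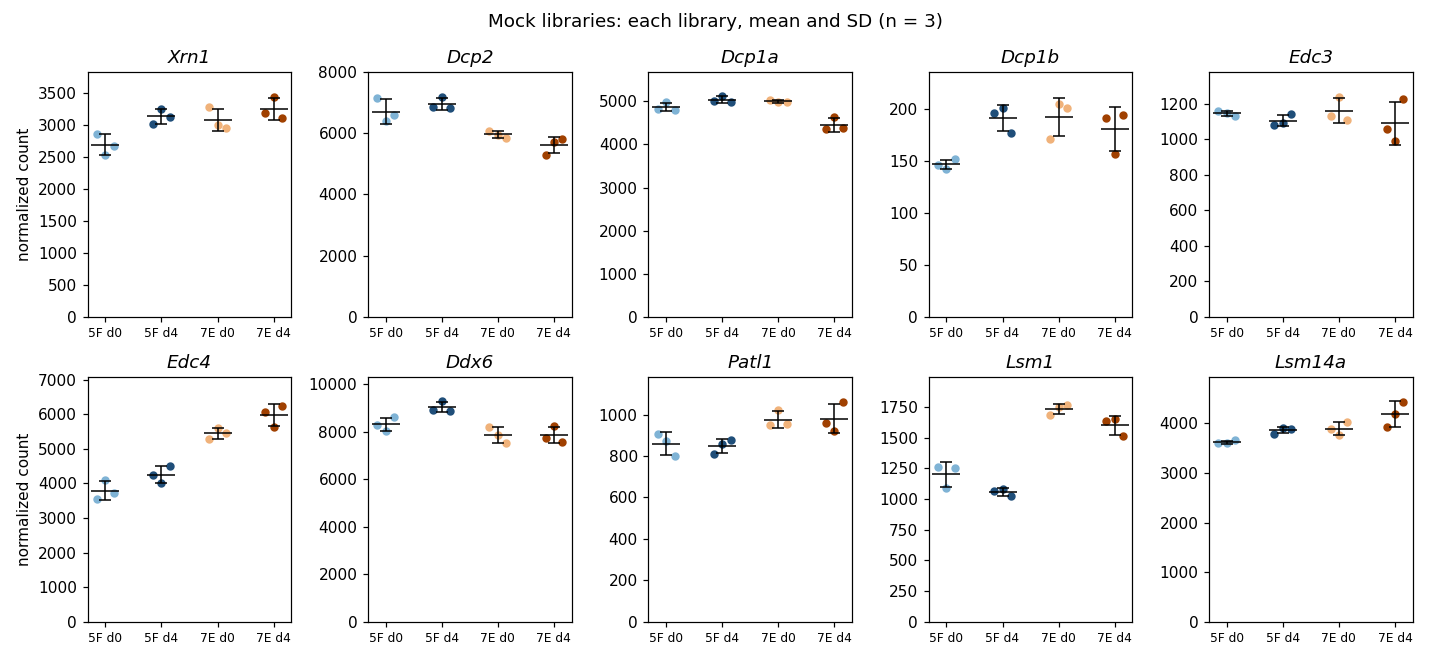
Normalized counts of the 10 mRNAs in the mock libraries of clone 5F and clone 7E at day 0 (d0) and day 4 (d4) of 4OHT. Points are libraries and bars are the mean and SD of 3 libraries, with each vertical axis starting at 0. Edc4 and Lsm1 are higher in all clone 7E libraries than in all clone 5F libraries, and Dcp1a is lowest in clone 7E at day 4.

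Of the 18 further pathway genes, clone 5F had 1 higher and 3 lower at day 4, and the largest changes were those of Dxo (0.22 ± 0.08), an enzyme that removes faulty caps, Lsm3 (-0.19 ± 0.06) and Dcps (-0.18 ± 0.05). Clone 7E had 0 higher and 5 lower, led by Patl2 (-0.54 ± 0.14), Gigyf2 (-0.28 ± 0.05), a translational repressor that works with Eif4e2, and Dcps (-0.22 ± 0.06). Of 11 exosome genes, 1 was higher and 3 lower in clone 5F and 1 and 4 in clone 7E. Of 14 deadenylase genes, 3 were higher and 1 lower in clone 5F and 0 and 3 in clone 7E.

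The clones were also compared with each other at day 0, on the same libraries that served as day 0 above. Lsm1 and Edc4 were higher in clone 7E, along with Dcp1b, Xrn1 and Patl1, and Dcp2 was lower. These were 5 of 10 higher and 1 of 10 lower, where 18.1% of 17209 genes were called in each direction, 36.2% in all. Lsm1 had normalized counts of 1264, 1087 and 1250 in clone 5F and 1689, 1746 and 1767 in clone 7E (0.53 ± 0.06, adjusted p = 1.03e-07). Edc4 had 3564, 4091 and 3724 against 5287, 5604 and 5451 (0.52 ± 0.05, adjusted p = 4.35e-08). For both, all clone 7E libraries lay well above all clone 5F libraries.

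Dcp1b (0.39 ± 0.11, adjusted p = 0.00670), Xrn1 (0.20 ± 0.05, 0.00609) and Patl1 (0.18 ± 0.06, 0.0310) were also higher in clone 7E, and Dcp2 (-0.17 ± 0.05, 0.00629) was lower. With own spike-ins, where the median of all genes was -0.17, Xrn1 (0.04), Dcp1b (0.23) and Patl1 (0.02) no longer passed and Ddx6 (-0.24) did. Xrn1 was also lost without clone 7E day 0 replicate 1 (adjusted p = 0.0589), Dcp2 without clone 5F day 0 replicate 1 (0.0691), and Patl1 without clone 5F day 0 replicate 3 (0.171) or clone 7E day 0 replicate 2 (0.138).

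The 5 primitive endoderm markers summed to 119 to 123 CPM in clone 5F at day 0 and 89.9 to 94.2 CPM at day 4, against 11.1 to 12.2 and 10.7 to 11.5 CPM in clone 7E, with none of them at 0 in any group. The 5 markers of primed or differentiating cells summed to 69.6 to 72.1 and 57.8 to 60 CPM in clone 5F and to 132 to 134 and 80.1 to 94.8 CPM in clone 7E. Their part in the mock differences was not tested. Skiv2l itself was lower in clone 7E than in clone 5F at day 0 (-2.10 ± 0.06, adjusted p = 3.89e-18, edgeR quasi-likelihood test). With 1 clone of each genotype, the loss of Aven, the tag, the lower Skiv2l and other differences between the lines cannot be told apart.

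Among the 18 further pathway genes, 3 were higher and 3 lower in clone 7E at day 0, with Lsm4 (0.67 ± 0.05) and Lsm6 (0.52 ± 0.05), further subunits of the LSM1-7 ring that are shared with the nuclear LSM complex, and Dxo (-0.58 ± 0.08) at the largest differences. Of the exosome genes 3 were higher and 4 lower, and of the deadenylase genes 4 were higher and 0 lower.

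The mock change from day 0 to day 4 itself differed between the clones for Dcp1a and Dcp1b, 2 of 10, both lower in clone 7E, where 11.9% of 17209 genes passed, 6.65% higher and 5.29% lower. For Dcp1a the difference (clone 7E minus clone 5F) was -0.21 ± 0.06 (adjusted p = 0.0145), set by 0.05 ± 0.04 in clone 5F and -0.17 ± 0.05 in clone 7E. For Dcp1b it was -0.47 ± 0.15 (adjusted p = 0.0473), with 0.38 ± 0.11 and -0.09 ± 0.12, and its call was lost with DESeq2 (0.0700) and on leaving out any of 9 libraries. The interaction for Xrn1 was -0.145 ± 0.08 (adjusted p = 0.253), with a 95% interval from -0.29 to 0.00 (0.0047), so a difference between the clones was neither called nor excluded. With own spike-ins, where the median of all genes was -1.03, it was -1.18.

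Crosslinking and analysis of cDNAs (CRAC) gives the RNA bound to a tagged protein. The authors pooled the libraries of each protein and, for each mRNA, expressed XRN1, SKIV2L and MTR4 as shares that sum to 1, MTR4 being the helicase of the nuclear exosome. XRN1 held the largest share on 8 of the 9 mRNAs listed and MTR4 on 1, whereas XRN1 held the largest share on 38.1% of all 7240 mRNAs. The median XRN1 share was 0.496 on the 9 mRNAs and 0.337 over all. The values are pooled over libraries and their depth is unknown, so they carry no error and no test.

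Ddx6 had the largest XRN1 share of the 9 at 0.615 (percentile 94.7 of all mRNAs), followed by Dcp2 at 0.571 (91.1), Dcp1a at 0.569 (91.0) and Edc3 at 0.553 (89.4). Lsm14a (0.496), Edc4 (0.451), Patl1 (0.440) and Lsm1 (0.394) came next. The SKIV2L shares of Dcp1a (0.136), Edc3 (0.107), Dcp2 (0.159) and Ddx6 (0.166) lay below the median of 0.267, and those of Lsm1 (0.374), Edc4 (0.329) and Patl1 (0.287) above it. Dcp1a and Dcp2, with the shortest and the longest half-life of the 10, had nearly equal XRN1 shares.

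The mRNA of Xrn1 itself stood apart. Its XRN1 share was 0.145 (percentile 8.99), with 0.458 for MTR4 (74.6) and 0.398 for SKIV2L (75.4). The XRN1 cells used for crosslinking carry the tag at the end of this gene, at the site of the first guide above, and the part of that tag in the share was not tested. Divided by the RNA-seq level of each line by the authors, the values on Xrn1 were 0.147 for XRN1, 0.36 for MTR4 and 0.398 for SKIV2L. The largest on this mRNA was then SKIV2L and no longer MTR4. The deposited RPKM of Xrn1 was 14.6 in the XRN1 line, 14.8 in the SKIV2L line and 18.8 in the MTR4 line.

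AVEN binding is a separate ratio and not one of the shares. It was highest on Xrn1 (0.495, percentile 87.1), Lsm1 (0.471, 84.4) and Edc4 (0.453, 82.1), and lowest on Edc3 (0.132, 10.0) and Ddx6 (0.167, 16.3). The median over the 9 was 0.390, beside 0.295 over all mRNAs.

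**Figure D5:**
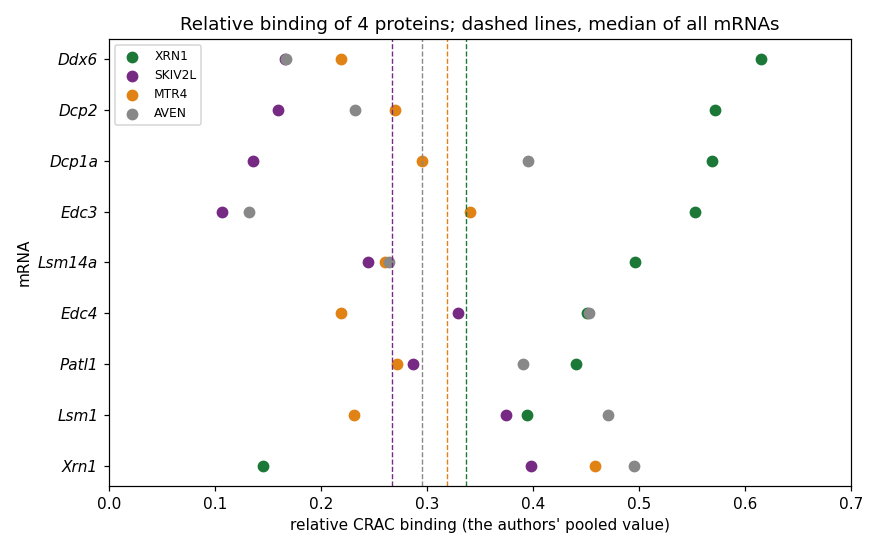
Relative CRAC binding of XRN1, SKIV2L, MTR4 and AVEN on the 9 mRNAs listed, as the authors' pooled values, ordered by the XRN1 value. Dashed lines are the medians of all 7240 mRNAs. XRN1 lies to the right of its median on 8 mRNAs and far to the left of it on Xrn1 (0.145).

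Among the comparison lists, XRN1 held the largest share on 5 of 13 further pathway mRNAs, 0 of 11 exosome mRNAs and 5 of 14 deadenylase mRNAs. The exosome mRNAs had a median SKIV2L share of 0.457 and a median XRN1 share of 0.250. The 9 mRNAs differ in layout too. The sequence after the stop codon made up 84.0% of the Dcp2 transcript of 8616 nt, 70.5% of Ddx6, 70.5% of Lsm1, 70.1% of Edc3 and 67.4% of Dcp1a, but 7.45% of Edc4 and 3.96% of Xrn1. The 4 mRNAs with the largest XRN1 share were thus among the 5 with the largest part after the stop codon, a pattern picked after the values were seen.

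Amounts can be compared between genes only per length. In RPKM, here reads per length of the principal Gencode transcript, scaled to depth, the mock libraries of clone 5F at day 0 gave Ddx6 48.5 ± 1.34 (SD, n = 3), Lsm14a 43.5 ± 0.174, Dcp1a 31.0 ± 0.787, Edc4 28.95 ± 2.17, Dcp2 27.6 ± 1.65, Xrn1 17.3 ± 1.05, Lsm1 16.0 ± 1.24, Patl1 7.23 ± 0.503, Edc3 7.12 ± 0.116 and Dcp1b 1.57 ± 0.0371. The neighbours Dcp1a and Edc4, Edc4 and Dcp2, Xrn1 and Lsm1, and Patl1 and Edc3 had overlapping ranges. The order depended on the length used. Over all annotated exons, 18585 nt against 5499 nt for Xrn1, the values were 36.6 for Ddx6, 27.4 for Dcp2, 24.5 for Edc4, 21 for Dcp1a, 20.9 for Lsm14a, 13.8 for Lsm1, 7.1 for Patl1, 7 for Edc3 and 5.13 for Xrn1. Ddx6 was the highest and Dcp1b (0.819) the lowest of the 10 by either length.

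Over the 16 clone, day and time groups, the mean log2 level of Xrn1 followed that of Reps1 (Pearson r = 0.9981), Srebf1 (0.9977) and Cul3 (0.9973) most closely among 9963 genes with a mean level at least that of Dcp1b. Among members, Lsm14a (0.993) and Dcp1a (0.988) were closest to Xrn1 and Dcp2 (0.791) was the least like it. The groups share the fall with time and the same scaling, so these correlations are a description.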

How the data were processed

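RNA was measured by RNA-seq in 47 libraries of 2 mESC lines. The authors mapped reads with STAR 2.5.0a to GRCm38 with ERCC spike-in sequences added, kept unique reads and deposited counts per gene, not normalized. Ribosomal RNA was depleted and the libraries do not keep strand, so overlapping genes can share reads. The authors' deposited CRAC table holds relative binding as a ratio, RPKM values of the tagged lines and transcript positions as a score in nt. Its log2 fold changes, adjusted p-values and half-lives, and a separate half-life file, are the authors' own comparisons and were not used. There were 0 unused columns of per-sample values.

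Of 53380 genes, 53274 were given a symbol from Gencode M21 (GRCm38). Following the study, libraries of one time point shared a set of size factors, and each time point had 1 spike-in ratio (1, 0.649, 0.531 and 0.438 at 0, 120, 240 and 360 min, from 34 of 92 ERCC sequences with a mean above 50). Normalized counts are counts divided by the size factor and multiplied by this ratio. The study's methods word this last step as a division, which departs from what was done here: with ratios below 1, division would raise the later time points, so every half-life and percent of mock rests on the multiplication. Genes were kept by filterByExpr and tested by the quasi-likelihood test of edgeR 4.0.16 in R 4.3.3 with Benjamini-Hochberg adjustment at 0.05; alternatives used DESeq2 1.42.0, limma 3.58.1 (voom), TMM, each library's own spike-ins, a filter of only 1 count, a replicate block, time as levels, and left-out replicates or mock libraries. SE is the log2 value divided by the root of the test's F. Half-lives used a pseudocount of 1. On simulated data in which 200 of 16171 genes changed by 1 log2, the test of mock levels in clone 5F recovered 99.5%, and 6.57% of its calls were false. That change is larger than any mock change of the members in the main test. Replicate libraries differed by a chi-square per gene of at least 2.43, so none was treated as a copy.

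Replicate numbers pair the mock libraries of the clones at day 0, where same-numbered deviations from the group means correlated at 0.146 to 0.349, but not those of day 0 and day 4 (-0.298 to -0.0776 in clone 5F and -0.262 to -0.0296 in clone 7E). Over all time points the clones correlated at 0.0572 to 0.758 at day 0 and at 0.146 to 0.775 at day 4. Between the days the range was -0.298 to 0.518 in clone 5F and -0.262 to 0.56 in clone 7E. In mock at day 4 the clones correlated at 0.156 to 0.373. The main tests of decay and of mock levels did not model this pairing, and a block by replicate number was run only as an alternative.

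The 10 members and the other lists were chosen with earlier results of these data known. All 10 members are named in each comparison, and of 18 further pathway genes up to 3 that passed, by size of change.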

Additional observations from a re-analysis of the deposited data

Results flagged for a closer look

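The change in mock level from day 0 to day 4 differed between the clones for 2 of the 10 mRNAs, by an interaction term in edgeR's quasi-likelihood test over the 12 mock libraries. For Dcp1a the difference, clone 7E minus clone 5F, was -0.21 (adjusted p = 0.0145). Dcp1a kept its call with TMM, DESeq2, limma-voom, a filter of only 1 count, the replicate block and each single library left out. For Dcp1b it was -0.47 (adjusted p = 0.0473), and it was lost with DESeq2 (0.0700), limma-voom (0.0554), a filter of only 1 count (0.0621) and the replicate block (0.0624), and on leaving out 9 of the 12 libraries in turn. Dcp1b had 145 to 209 reads in the mock libraries.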

How the results depend on the processing

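The results are the number of the 10 mRNAs that passed in each comparison. None passed in any of the 4 comparisons of decay slopes under any alternative run, and the comparisons with the typical transcript stayed within 1.5 times. Mock levels moved more. For clone 5F the 4 calls became 2 with a replicate block and 1 with own spike-ins, and 2 to 4 with a library left out. For clone 7E the 2 calls became 1 with a replicate block, 10 with own spike-ins, and 1 to 2 with a library left out. For the difference between the clones the 2 calls became 1 with DESeq2, limma-voom, a filter of only 1 count or a replicate block, 10 with own spike-ins, and 1 to 2 with a library left out. The median half-life of the 10 in clone 5F at day 0 moved from 229.9 to 407.4 min without the mock libraries. With own spike-ins, where the median of all genes in clone 7E shifted by -1.105, the day 4 change reversed for Xrn1 (-1.02), Edc4 (-0.97), Patl1 (-1.09) and Lsm14a (-0.9948), and the difference between clones reversed for Patl1 (-0.998), Lsm1 (-0.97) and Lsm14a (-1.02). The relative decay of Lsm14a in clone 5F reversed without the mock libraries (-0.0129). The causes were not tested. Of 956 values that passed in neither setting, 89 changed sign. Leaving out libraries numbered a multiple of 8, and their number as a term, were chosen after seeing the data. Counts over all genes moved by more than 1.5 times as follows. With own spike-ins, mock calls rose from 6551 to 14974 in clone 7E and from 2056 to 14372 for the difference between clones. Without the mock libraries, relative decay calls fell from 10846 to 5384 in clone 5F and from 10119 to 5942 in clone 7E. The 35 decay calls of clone 5F became 113 with time as levels, 14 without the mock libraries, 19 with own spike-ins and 2 to 4 with a replicate left out. The 154 of clone 7E became 926 with time as levels, 267 with DESeq2, 236 with TMM or without the mock libraries, and 26 to 50 with a replicate left out. The 7 between clones became 378 with time as levels, 61 without the mock libraries, 28 with TMM or the number term, 30 without the numbered libraries, 27 with DESeq2, 4 with limma-voom or own spike-ins, and 0 with a replicate left out. The 0 for the difference in decay became 14 with time as levels, 12 with the number term, 5 without the mock libraries, 4 with DESeq2 or without the numbered libraries, and 1 with own spike-ins. Counting depth was lowest for Dcp1b, at 79 to 209 reads per library.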
